A study of Mus musculus with 2 samples.

Results

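Spp1 encodes osteopontin, a secreted phosphoprotein of bone, activated macrophages and injured vessels. It was followed through 2 droplet single-cell RNA libraries, as 1 of the 28000 features counted in each. Both libraries came from thoracic aortas of male C57BL/6 mice aged 24 weeks, 1 library per genotype, and no number of animals per library was stated. All mice carried Myh11-CreERT2, a recombinase driven by a smooth muscle myosin promoter and switched on by tamoxifen, and the mT/mG reporter, which turns on membrane eGFP in recombined cells and in their descendants. Tamoxifen was given at 1.5 weeks of age. The control mice were Tsc1+/+. The KO mice were Tsc1fl/fl, so that the recombinase was meant to remove Tsc1, a brake on the growth kinase complex mTORC1, from smooth muscle cells (SMCs). GFP-positive viable cells were sorted before capture. Spp1 and its cell classes were chosen by measured values of these libraries, its UMI counts by genotype and by cell, so that none of these contrasts is a test.

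Osteopontin binds cells through integrins and CD44, and its acidic, phosphorylated chain binds calcium and slows the growth of mineral crystals. In arteries it is known as a product of SMCs that have lost part of their contractile program, and of macrophages in plaques. Its gene lies in the SIBLING cluster, a row of related genes for mineralized tissue proteins.

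Spp1 (ENSMUSG00000029304) lies on the + strand of chromosome 5, 104435118 to 104441050 (mm10), and GENCODE lists 7 transcripts of it, all protein-coding, with 4 to 8 exons. The 250 bases before its RefSeq start are shown because regulators of this promoter are among the genes compared below. They span chr5:104434861-104435110 (GRCm38.p6, + strand, RefSeq), and capitals mark the 1 match to the Runx motif ACCACA, 128 to 123 bases before the start.

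Spp1: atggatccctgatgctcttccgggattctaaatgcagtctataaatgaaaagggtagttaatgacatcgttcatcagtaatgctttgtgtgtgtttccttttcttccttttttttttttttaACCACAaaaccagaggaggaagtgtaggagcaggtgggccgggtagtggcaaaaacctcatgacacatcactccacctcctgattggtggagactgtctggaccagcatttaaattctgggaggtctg

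Of 32851 mouse promoter windows of this length, 14.05% held ACCACA on either strand. The windows were also searched, on both strands, for CACGTG (the E-box of the MiT family), CATGTG (the core of the M-box) and TGANTCA (AP-1). These letters were not in the Spp1 window, so no match overlapped another, and 6.02%, 12.3% and 6.75% of all windows held them.

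Cells were kept with 500 or more genes and at most 10% of unique molecular identifiers (UMIs) from mitochondrial genes, and were split at 5 eGFP UMIs. This left 1692 eGFP and 350 eGFP-negative control cells, and 1919 eGFP and 17 eGFP-negative KO cells. The median depth was 11665 UMIs in control eGFP cells and 15012 in KO eGFP cells. With 1 library per genotype there is no test and no replicate check of any value below. Intervals are 95% intervals of counting error only, and CPM is the gene's UMIs per UMIs of all genes in the cells summed, on the usual CPM scale.

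All mice were labelled male. Even so, 296 of the 330 control cells with no eGFP UMI held UMIs of Xist, the noncoding transcript that silences an X chromosome in females, while the 1692 control eGFP cells held 5 Xist UMIs in all. The libraries shared 16 cell barcodes. In 11 of these pairs neither library had an eGFP UMI, all 11 KO cells had Xist UMIs, and the log counts of the pair correlated at 0.734 to 0.814 over genes. In the other 5 pairs this correlation was 0.445 to 0.532. The 11 KO cells held 0.504 to 0.530 times the UMIs of their control partners. They make up 11 of the 12 KO cells with no eGFP UMI, so the KO library held almost no eGFP-negative cells of its own from which to read a background of free RNA. Without shared barcodes, the Spp1 level of KO eGFP cells was 340.4 CPM, against 340.0 CPM with them.

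Spp1 was absent from the counts of control eGFP cells and present in a minority of KO eGFP cells. The control eGFP cells had 0 Spp1 UMIs among 20011501, which allows up to 0.150 CPM (3 counts) and a share of cells with a UMI, not of cells expressing the gene, of up to 0.177%. The KO eGFP cells had 10466 Spp1 UMIs among 30778165, or 340.0 CPM (333.6 to 346.6), at least 2268-fold higher than that floor. The exact interval of the ratio begins at 1844. A Spp1 UMI was found in 679 of 1919 of them, 35.4% (33.2 to 37.6). After thinning every cell to 5000 UMIs the share was 18.0% of 1902 KO cells (16.3 to 19.8) and 0 of 1602 control cells. The contrast by genotype was part of how Spp1 was chosen and is given as a description.

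The eGFP-negative control cells held 10 Spp1 UMIs in 2 of 350 cells (0.571%, 0.0693 to 2.05) at a median depth of 3780.5 UMIs. One of the 2 cells held 9 Spp1 UMIs beside 19 of Nkg7, a gene of cytotoxic lymphocytes, and 3 of Ptprc, the pan-leukocyte CD45 gene, and none of the macrophage genes Lyz2 and Cd68. The other held 1 Spp1 UMI beside 145 UMIs of Cd74, a gene of class II antigen presentation, and its barcode was one of the 16 shared. Its KO partner also held 1 Spp1 UMI. Among the 17 eGFP-negative KO cells, 3 held 9 Spp1 UMIs in all. Of these 9 UMIs, 8 were in 2 cells with 3 and 4 eGFP UMIs, just under the limit, which also had UMIs of the SMC genes Acta2 and Myh11.

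**Figure D1:**
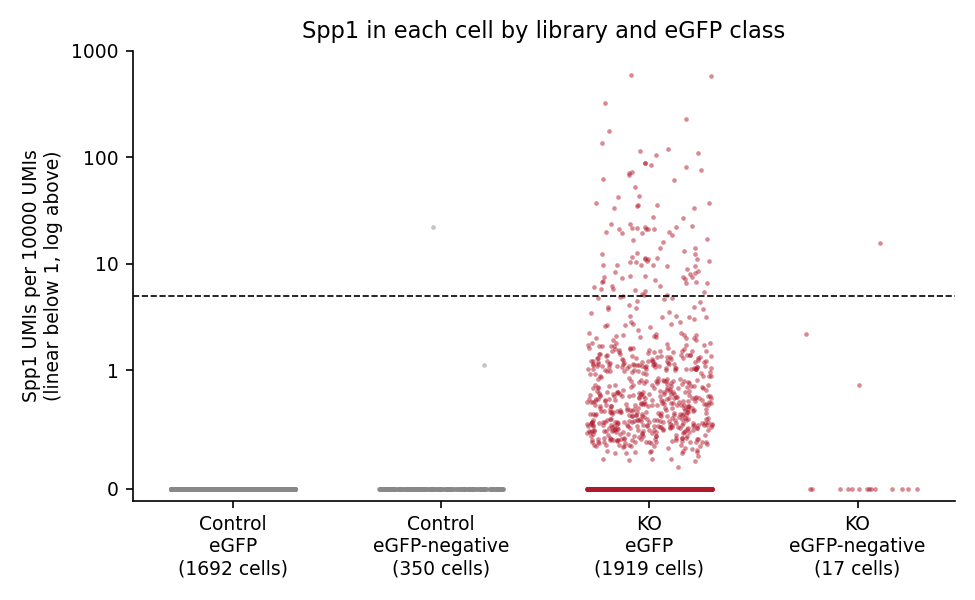
Spp1 UMIs per 10000 UMIs in each kept cell (vertical axis, linear below 1 and logarithmic above), by library and eGFP class; points are cells and the dashed line marks 5 per 10000. All 1692 control eGFP cells lie at 0, while the KO eGFP cells reach from 0 to 591.8.

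Within the KO eGFP cells, Spp1 was concentrated in few cells. The rule cut them into 102 high cells at 5 or more Spp1 UMIs per 10000 (5.32%, 4.35 to 6.42), 577 low cells with at least 1 UMI below that level (30.1%) and 1240 cells with none (64.6%). The high cells had 7.09% of the UMIs of all genes and 91.3% of the Spp1 UMIs. Their Spp1 ranged from 5.06 to 591.8 per 10000 with a median of 15.0, and the summed level was 4376 CPM (4289 to 4465). The cells nearest the cut lay at 5.06 and 5.08 on one side and 4.99 and 4.87 on the other, with no gap between them. Low cells had a median of 1 Spp1 UMI and a summed level of 89.0 CPM (83.4 to 94.99).

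The top end was steep. The highest cell held 1774 Spp1 UMIs, 17.0% of all, and the 10 highest held 52.1%. Without these 10 cells the level of KO eGFP cells was 164 CPM. By level, 35 of the high cells lay between 5 and 10 per 10000, 23 between 10 and 20, 23 between 20 and 50, 11 between 50 and 100, and 10 above. The share of high cells at the same rate after thinning, 5.21%, was close to the unthinned 5.32%, while the share with any UMI was cut from 35.4% to 18.0%.

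**Figure D2:**
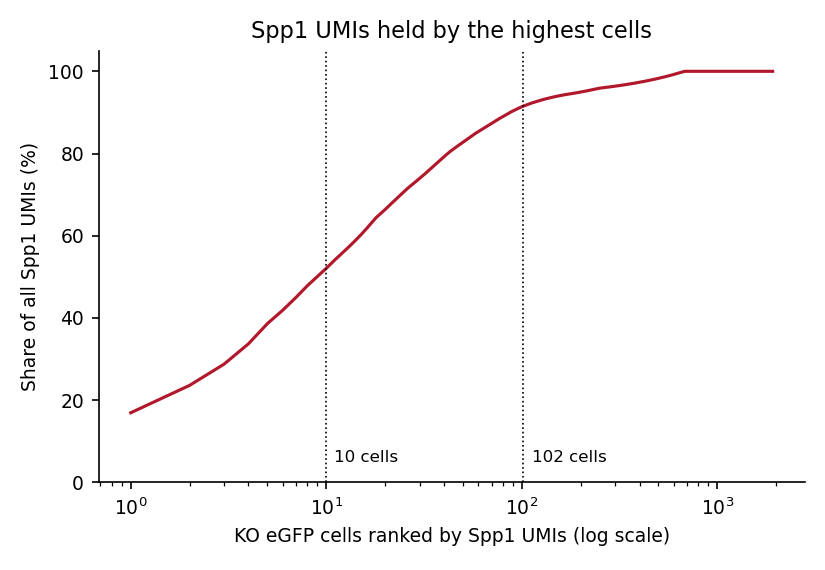
Cumulative share of all Spp1 UMIs (vertical axis, percent) held by KO eGFP cells ranked from the most to the fewest Spp1 UMIs (horizontal axis, logarithmic); dotted lines mark 10 and 102 cells. The first 10 cells reach 52.1%.

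High cells were deeper than the rest. Their median was 21282 UMIs and 4191.5 genes, against 17032 and 4001 in low cells and 14122 and 3639.5 in cells with none. The median mitochondrial share was 4.95% in high cells, 5.64% in low cells and 5.88% in cells with none, and the eGFP level was 3037, 3593 and 3658 CPM. Scrublet called 0 of the 102 high cells doublets and 6 KO cells in all. Depth therefore moved with the classes, and the counts after thinning are in the closing section.

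Spp1 lay mostly in cells with a low contractile share, which is the percent of a cell's UMIs from 27 genes of the SMC contractile apparatus. The median contractile share was 6.17% in control eGFP cells and 2.92% in KO eGFP cells. Within the KO cells it was 3.21% in cells with no Spp1 UMI, 2.58% in low cells and 0.841% in high cells. When KO eGFP cells were divided into quartiles by this share, the lowest quartile held 71 of the 102 high cells, 14.8% of its 480 cells (11.7 to 18.3). Quartiles 2, 3 and 4, the highest, held 19, 7 and 5 high cells, or 3.97%, 1.46% and 1.04%. The Spp1 level in these quartiles, from lowest to highest contractile share, was 943, 218, 96.2 and 40.5 CPM. Median depth was 16256.5 UMIs in the lowest quartile and 15544.5 in the highest.

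Outside the high cells the level was also highest at the low contractile end. Low cells and cells with none together had 32.0 CPM (29.96 to 34.1) of Spp1. In the lowest contractile quartile the level was 47.3 CPM (42.3 to 52.7), in quartile 2 34.4, in quartile 3 27.4 and in the highest 20.4 CPM (17.3 to 23.8). The intervals of the lowest quartile and quartile 2 did not overlap, while those of quartiles 2 and 3, and of 3 and 4, did. Thinned to equal depth, 18.4%, 13.6%, 13.4% and 9.07% of such cells had a UMI, from the lowest to the highest quartile. How much of this low level is free RNA was not tested, since the KO library had no cells of another type at usable number.

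**Figure D3:**
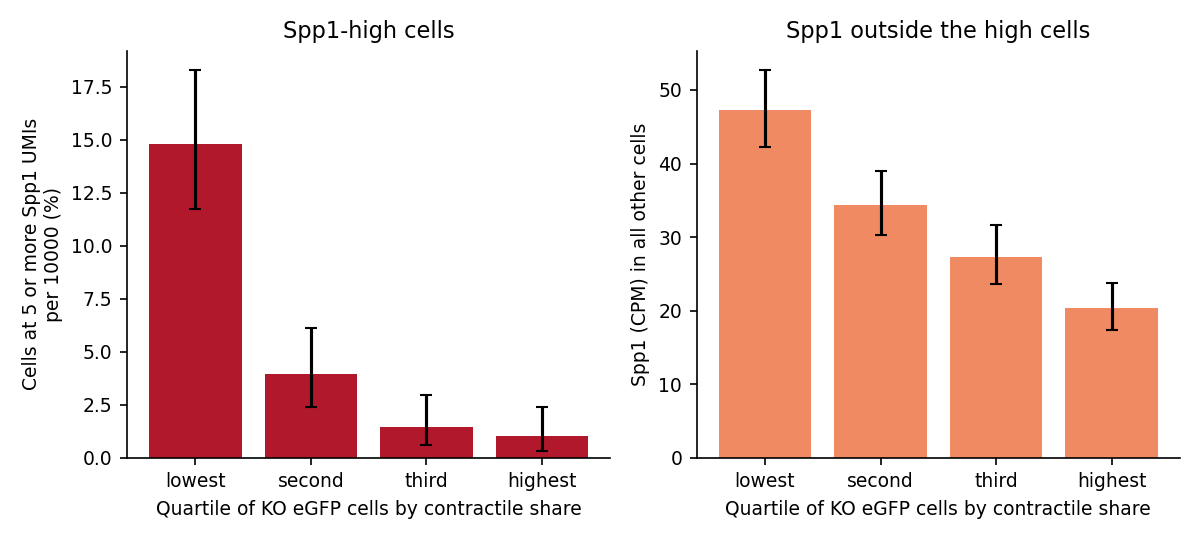
KO eGFP cells in quartiles by contractile share (horizontal axis). Left, percent of cells at 5 or more Spp1 UMIs per 10000, with exact binomial 95% intervals; right, Spp1 in CPM over all other cells, with exact Poisson 95% intervals. Both are highest in the lowest quartile, at 14.8% and 47.3 CPM.

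The authors' deposited table gives mean levels per 10000 for 9 control and 7 KO columns, each a cluster in a library. In the authors' deposited table Spp1 was highest in KO clusters 2 and 3, at 5.40 and 5.26, followed by KO cluster 1 at 1.47, KO cluster 6 at 0.437, control cluster 8 at 0.401, KO cluster 0 at 0.278 and control cluster 6 at 0.0156. The other 9 columns were listed at 0. KO cluster 2 had the lower contractile levels of the leading pair in the authors' deposited table, with Acta2 at 46.1 against 140.8 in KO cluster 3 and Cnn1, the calponin gene, at 1.51 against 6.64. KO cluster 6 was listed with no eGFP, and with Xist at 16.5 and Ptprc at 5.14, in the authors' deposited table. Cell numbers per column, and so the spread, are not used here.

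**Figure D4:**
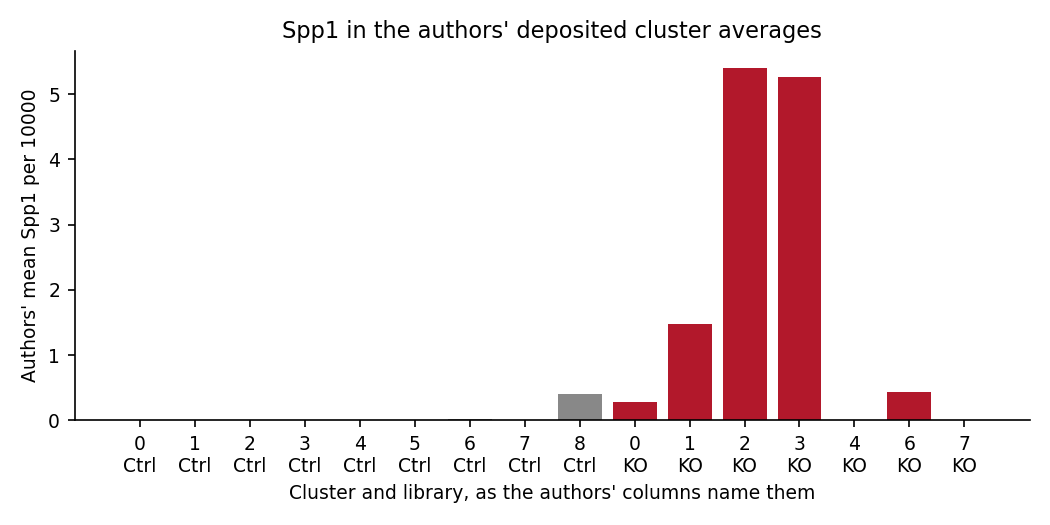
Spp1 in the authors' deposited table (vertical axis, mean per 10000) for each cluster and library column (horizontal axis; Ctrl, control). KO clusters 2 and 3 stand at 5.40 and 5.26, and the highest control column at 0.401.

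Over these 16 columns the genes whose log2 level (pseudocount 0.1) correlated most with Spp1 included Rnase1 (r = 0.883), Gpm6a (0.866), Aldh1a1 (0.8596), Ptgds (0.858), Fam124a (0.820), Papss2 (0.815), Serf2 (0.809), Thbs1 (0.773) and Cytl1 (0.755), of 6350 genes. The columns come from the same 2 libraries, and most of them are at 0 for Spp1. Over the 1919 KO eGFP cells correlations were weaker. Among the highest were those for Timp1 (0.386), Fn1 (0.320), Fxyd5 (0.312), Vcam1 (0.309), Tnfrsf11b (0.3003), Cytl1 (0.291), Mgp (0.242), Col8a1 (0.232) and Aldh1a1 (0.202), and the lowest were those for Myh11 (-0.293), Myl9 (-0.286), Lmod1 (-0.281), Mylk (-0.279) and Flna (-0.277). These values rest partly on the 102 high cells. Without them Timp1 stood at 0.197, Fn1 at 0.131, Fxyd5 at 0.0953 and Cytl1 at 0.0770.

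High cells were next set against the cells with no Spp1 UMI, gene by gene, as the ratio of summed CPM. The classes were cut from Spp1 itself within 1 library, so the ratios describe these cells and carry no test. Of 2906 genes at 50 CPM or more in either class, 125 were at least 1.5-fold higher in high cells, Spp1 included (4.3%), and 215 at least 1.5-fold lower (7.4%). This limit has to be met in 1 class only, so some genes in both counts had to differ. For lists, members at 10 CPM or more were counted, against 5.07% of 8015 genes higher and 8.42% lower. The median log2 ratio of all those genes was -0.06. Low cells were much closer to cells with none, with 15 of 2809 genes higher (0.534%) and 1 lower (0.0356%).

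Cytl1, a secreted protein of cartilage, and Timp1, an inhibitor of matrix proteases, had the largest ratios. Cytl1 had 58.4 CPM in cells with none, 113 in low and 694 in high cells, a ratio of 11.9 (11.0 to 12.9). Timp1 had 64.1, 126 and 752 CPM, a ratio of 11.7 (10.9 to 12.7), and was found in 39.6% of cells with none and 91.2% of high cells. The order none, low, high also held for Vcam1, an adhesion molecule for leukocytes (304, 590 and 1319 CPM), and for Fn1, the matrix protein fibronectin (583, 853 and 2370 CPM).

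The other large ratios were Cst6 (6.76), a cysteine protease inhibitor, Fxyd6 (4.78) and Fxyd5 (3.67), small regulators of the sodium pump, Fst (4.41), the activin-binding follistatin, Figf (4.34), the growth factor VEGF-D, and Cd34 (3.92) and Ly6a (3.74), surface proteins of progenitor and stromal cells. Ahsg (3.82), Tnfrsf11b (3.498) and the prostaglandin synthase Ptgs2 (3.49) completed the 15 with Igfbp2 (5.72). Igfbp2 and Figf leaned on 1 cell each. Without the high cell with most of their UMIs, Igfbp2 stood at 2.09 and Figf at 2.85. Cst6, Fxyd6, Fst, Figf, Cd34, Ly6a, Ptgs2 and Igfbp2 stood at 10.9 to 31.5 CPM in cells with none. They reached 50 CPM only in high cells and so had to be called higher.

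At the other end, Rgs5, a regulator of G protein signaling of mural cells, had 63.7 CPM in cells with none, 28.9 in low and 6.41 in high cells, a ratio of 0.101 (0.0549 to 0.170). The share of cells with a Rgs5 UMI differed far less, at 14.3%, 15.6% and 9.80%. Sost, the Wnt antagonist sclerostin, had 813 against 200 CPM and a ratio of 0.246. Contractile genes held much of this end: Actg2 (0.240), Cnn1 (0.264), Myh11 (0.299), Ppp1r14a (0.306) and Myl9 (0.349). Fbxl22 (0.223), Npy1r (0.264), a neuropeptide Y receptor, Pcp4l1 (0.272), Aoc3 (0.307), Asb2 (0.309), Sh3bgr (0.322), Kcnab1 (0.351) and the heat shock gene Hspa1a (0.357) made up the rest. Rgs5, Npy1r, Aoc3, Asb2 and Kcnab1 stood at 6.41 to 20.6 CPM in high cells. They reached 50 CPM only in cells with none and so had to be called lower.

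Of 11 receptor genes 9 were measured, 0 were higher in high cells and 2 were lower. Against 5.07% of all genes higher, a count of 0 among 9 is not a result about receptors. The lower ones were Itga8, an RGD-binding partner of Itgb1 in smooth muscle (618 against 347 CPM, ratio 0.562), and Itga9, whose product binds osteopontin beside the RGD site (229 against 128 CPM, ratio 0.560). Itgav, the subunit shared by most osteopontin-binding integrins, had 81.5 against 79.3 CPM, a ratio of 0.973 (0.826 to 1.14). Cd44 had a ratio of 1.13 (0.916 to 1.37), and the partners of Itgav stood at 0.866 (Itgb1), 1.12 (Itgb3), 1.26 (Itgb5) and 1.15 (Itgb8). Itga5 had a ratio of 0.750 (0.651 to 0.860), but 1.38 (1.101 to 1.72) within the lowest contractile quartile described below. Itga4 had 16 UMIs in cells with none and 0 in high cells. Itgb6 had 0 UMIs in all 3 classes.

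In KO against control eGFP cells, 2 of 9 measured were higher and 3 lower, where 13.2% of 8113 genes were higher and 11.4% lower. Itgb5 had 277 CPM in control and 559 CPM in KO eGFP cells, 2.02 times as much (1.96 to 2.08), and Itgb8 a ratio of 2.48. Itgb1 (0.603), Itgb3 (0.498) and Itga8 (0.450) were lower. Itgav had 72.7 against 80.3 CPM, and Cd44 had 45.5 against 44.5 CPM.

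Ibsp, Dspp and Mepe, its SIBLING neighbours of bone and tooth, had 0 UMIs in all KO eGFP cells. Dmp1 had 2 UMIs in cells with none, 3 in low cells and 0 in high cells. In control eGFP cells, where Spp1 was at 0, Ibsp had 28 UMIs (1.40 CPM) and Mepe 4. Of the flanking genes, Sparcl1, a relative of the matrix protein SPARC, had 1428 against 575 CPM in high cells, so that the ratio was 0.402 (0.380 to 0.426). Pkd2, a calcium channel gene on the other flank, went from 54.9 CPM in cells with none to 94.9 CPM in high cells (ratio 1.73, 1.48 to 2.01).

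Among enzymes that modify or cut osteopontin, 2 of 5 measured were higher and 0 lower, where 5.07% of all genes were higher and 8.42% lower. Fam20c, the kinase of secreted phosphoproteins, had a ratio of 1.57 (1.33 to 1.84), or 1.44 without 1 cell, and the gelatinase Mmp2 one of 1.71 (1.54 to 1.90). Tgm2, a transglutaminase that crosslinks osteopontin, stood at 1.01, the protease Mmp3 at 1.20 (0.698 without 1 cell) and Acp5, a phosphatase that acts on it in bone, at 1.32. Within the lowest contractile quartile described below, 0 of 5 were higher and 1 lower. There Fam20c stood at 1.15 and Mmp2 at 0.820.

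Of 31 transcription regulators reported for Spp1, 24 were measured, 1 was higher and 5 lower, where 5.07% of 8015 genes were higher and 8.42% lower. A count of 1 higher among 24 is near the share of all genes and is not a result about regulators. The higher one was Runx2, the master regulator of osteoblasts, at 3.00 CPM in cells with none, 4.77 in low and 10.5 in high cells. Its ratio was 3.51 (2.06 to 5.81) from 55 and 23 UMIs. Runx2 reached the list limit only in high cells and so had to differ. The lower ones were Myocd, Jun, Srf, Dlx5 and Fos. Myocd, coactivator of contractile genes, had a ratio of 0.391, Jun one of 0.492 and Srf one of 0.544. Hif1a stood at 1.20 and Fosl1 at 1.33.

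Of 12 measured mineral balance genes, 8 were higher and 0 lower, with a median log2 ratio of 0.83, where 5.07% of all genes were higher. Mgp, matrix Gla protein, a calcification inhibitor, had 33174, 47604 and 76443 CPM in the 3 classes, a ratio of 2.30. Ahsg, the plasma calcification inhibitor fetuin-A, had 46.5, 104 and 177 CPM, and Tnfrsf11b, the decoy receptor osteoprotegerin, 110, 175 and 384 CPM. Bmp4, a bone morphogenetic protein, had 10.0, 17.9 and 45.8 CPM, a ratio of 4.56 (3.54 to 5.85). One of the 8, Bglap, osteocalcin, had all 51 of its UMIs of the class in 1 high cell and reached the list limit only there, which leaves 7 without it. Ank, a pyrophosphate exporter, stood at 1.24, Bmp2 at 0.969 and the phosphate transporter Slc20a2 at 0.693.

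**Figure D5:**
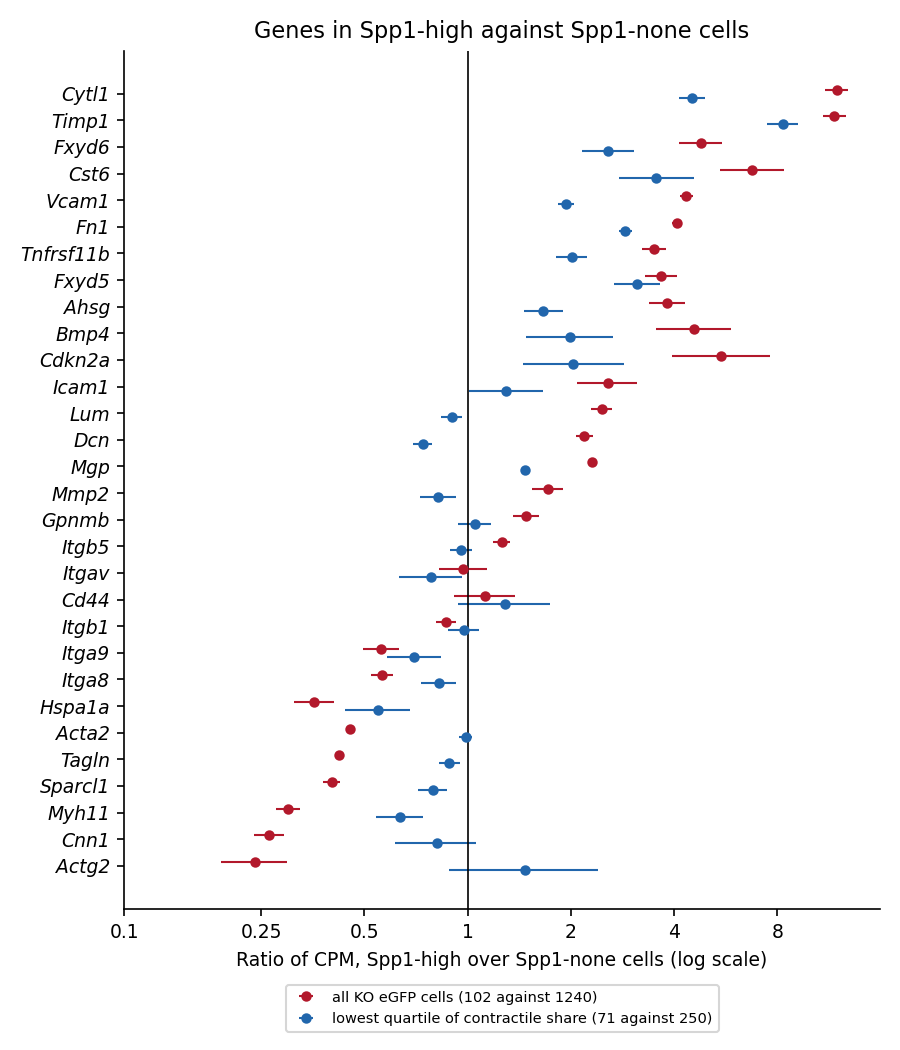
Ratio of CPM in Spp1-high over Spp1-none KO eGFP cells (horizontal axis, logarithmic) for 30 genes, over all such cells (red, 102 against 1240) and within the lowest quartile of contractile share (blue, 71 against 250); bars are exact 95% intervals of counting error. Timp1, Cytl1 and Fn1 stay above 1 in both, while Lum, Dcn and Mmp2 change side.

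In the list for modulated SMC, fibroblast and cartilage genes, 14 of 21 measured were higher and 1 lower, with a median of 1.13. Of all genes 5.07% were higher and 8.42% lower. Besides the genes above, Col8a1 (2.91), Igf1 (2.58), the proteoglycans Lum (2.46) and Dcn (2.19) and the lubricant Prg4 (2.37) were higher, while the cartilage proteoglycan Acan had 13.6 against 5.96 CPM. Igfbp5 stood at 0.978 and Comp at 0.730, or 0.369 without 1 cell. Contractile genes were 22 of 27 lower and 0 higher, with a median of -1.11. Des at 0.806 and Vcl at 0.710 were among those short of the call, but Des stood at 0.455 without 1 cell.

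Of 14 inflammation and adhesion genes, 8 were higher and 1 lower, where 5.07% of all genes were higher and 8.42% lower. Il6 and Ccl2, 2 of the 8, reached the list limit only in high cells and so had to differ, and the other 6 passed it in cells with none. Il6 had 2.24 against 16.5 CPM (ratio 7.37, 4.58 to 11.8), the chemokine Ccl2 a ratio of 3.42 and Icam1 2.56, while C3 stood at 0.640. Without 1 cell each, Il6 stood at 4.74 and Ccl2 at 2.20. Of 8 cell cycle genes, 5 were higher and 0 lower, against the same shares of all genes. But 3 of the 5, Birc5, Top2a and Cdkn2a, reached the list limit only in high cells and so had to differ. The 5 were the inhibitors Cdkn2a (5.48) and Cdkn2b (2.15), the cyclin Ccnd1 (2.28), and Birc5 (7.83) and Top2a (4.49) of dividing cells, which had UMIs in 4.90% of high cells each. Birc5 and Top2a each leaned on 1 cell and stood at 3.42 and 1.99 without it, and Cdkn2a at 3.55. At a mitochondrial limit of 5% Top2a stood at 0.472.

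Of 31 measured lysosomal genes, 2 were higher, Ctsk (2.11) among them, and 0 lower, with a median of 0.07, a count near the 5.07% of all genes. In KO against control eGFP cells 18 of 31 were higher, where 13.2% of all genes were. Gpnmb, a lysosomal glycoprotein with 1.85 CPM in control and 199 in KO eGFP cells, had 180, 221 and 266 CPM in the 3 classes, a ratio of 1.48 (1.35 to 1.62). Lipid genes had 0 of 10 higher and 3 lower: Vldlr (0.360), Fabp5 (0.509) and Fabp4 (0.576). Against 5.07% of all genes higher, a count of 0 among 10 is not a result about lipid genes. Of all genes 8.42% were lower. After thinning to equal depth, with the classes cut again from the thinned counts, Fabp5 stood at 1.04. The stress list, heat shock and early response genes that tissue digestion can induce, counted 8 of 19 lower, Atf3 (0.447) among them, and 0 higher (median -0.51). The share of all genes lower was again 8.42%.

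Markers of other cell types were checked in the high cells. None of the 14 macrophage markers reached 10 CPM in either class. They summed to 18.4 CPM in cells with none (0 to 2630 per cell) and 19.7 CPM in high cells (0 to 117), and 8 of the 14, Ptprc, Adgre1 and Trem2 included, had 0 UMIs in high cells. Endothelial markers summed to 12.3 and 16.5 CPM and lymphocyte markers to 1.91 and 4.12 CPM. Schwann cell markers summed to 12.1 and 43.5 CPM (0 to 964 per high cell), and the 1 of 5 measured was higher. Chondrocyte markers had 0 of 3 measured higher and 1 lower, and pericyte markers 0 of 5 higher and 2 lower. Of all genes 8.42% were lower. Fibroblast markers summed to 810 CPM (0 to 22950 per cell) and 1498 CPM (0 to 12296). Of 5 measured, 3 were higher, against 5.07% of all genes, and their part in the result was not tested. Within the lowest contractile quartile 0 of 7 measured fibroblast markers were higher and 2 lower, with a median of -0.44. There 4.57% of 8009 genes were higher and 8.74% lower, so a count of 0 higher among 7 is not a result about these markers. Of 8 osteoblast markers 3 were measured: Col1a1 at 1.55, and Runx2 and Bglap, which reached the limit only in high cells, Bglap in 1 cell. Ibsp and Dmp1 were at 0 in high cells.

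Because high cells sat at the low contractile end, the comparison was repeated within the lowest contractile quartile, 71 high cells against 250 with none. Their median depths were 19827 and 14558.5 UMIs and their median contractile shares 0.620% and 0.792%. Here 4.57% of 8009 genes were higher and 8.74% lower. Timp1 had 123 against 1015 CPM, a ratio of 8.28 (7.46 to 9.21), Cytl1 a ratio of 4.50, Fst 4.05, Cst6 3.55, Fxyd5 3.12, Fn1 2.88 and Ptgs2 2.58. Vcam1 (1.94), Tnfrsf11b (2.01), Bmp4 (1.98), Ahsg (1.66) and Mgp (1.47) were smaller than over all cells. So were Il6 (4.37, 2.50 to 7.79) and Runx2 (2.09, 1.06 to 4.05). These 2 genes stood at 5.77 and 6.03 CPM in cells with none of this quartile. Here too they reached the list limit only in high cells and so had to differ. Other genes called higher over all cells fell short of the call in this quartile. Among them were Col8a1 (1.39), Icam1 (1.30), Ly6a (1.24, 0.969 to 1.57), Ctsk (1.14) and Ccnd1 (1.07, 0.832 to 1.37). Gpnmb stood at 1.05 (0.936 to 1.17).

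Lum stood at 0.899 (0.837 to 0.965), Dcn at 0.739 (0.695 to 0.786), Mmp2 at 0.820 and Igf1 at 1.03. The modulated SMC list had 6 of 20 higher and 1 lower with a median of 0.03, and the contractile list, by construction nearly matched, 2 of 26 lower. Mineral balance had 5 of 12 higher, the single-cell Bglap among them, and 0 lower. Rgs5 (0.119), Sost (0.363) and Jun (0.449) were lower there too, and the stress list had 7 of 19 lower. Receptors had 0 of 9 higher and 1 lower, Itgb8 at 0.563.

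Tsc1 itself had 9.54 CPM in control and 8.55 CPM in KO eGFP cells. A droplet tag near a transcript end can lie outside the deleted part, so these counts do not check the genotype. In the 3 Spp1 classes Tsc1 had 9.06, 8.66 and 3.67 CPM, the last from 8 UMIs, a ratio of 0.405 (0.172 to 0.816).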

How the data were processed

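Each library was deposited by the authors as a matrix of raw UMI counts per gene and cell. Cell Ranger, bcl2fastq and Seurat 2.0 are listed with mm10 in the submitters' processing notes, without their roles, and the way cells were called is unstated there. The authors' deposited table of cluster averages was read as linear mean UMIs per 10000, since each column sums to that total. Droplet counts favour transcript ends and abundant genes, and levels here are not per length. Counts were summed over cells and divided by their total (CPM). Counts got exact Poisson, shares Clopper-Pearson and ratios exact conditional binomial intervals (scipy 1.17.1). A ratio of 1.5 or its inverse was the call, among genes at 50 CPM (lists at 10 CPM); 3 counts were the floor. Thinning drew 5000 UMIs per cell without replacement. Doublets were called with Scrublet in scanpy 1.11.5 and kept. The ratio code was tested on simulated data. The rule for named genes took Spp1, the 15 largest and smallest ratios (without mitochondrial, ribosomal protein and unnamed genes), the genes most correlated with Spp1, all receptors and SIBLING genes, and the ends of each list. Col1a1, Dlx5, Fos, Cd74, Nkg7, Lyz2, Cd68, Ptprc, Adgre1, Trem2, Xist and Tsc1 were named after their values were seen. Some genes that this rule takes are not reported here. Spp1, the lists and the limits were chosen with earlier results of these data known. Depth was 21445606 control and 30865721 KO UMIs in kept cells. Alternatives are given in the closing section.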

Additional observations from a re-analysis of the deposited data

Results flagged for a closer look

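The KO cells left out by the mitochondrial or gene limit also held Spp1, which no value above uses. In these 161 KO cells there were 71 Spp1 UMIs in 40 cells (24.8%, 18.4 to 32.3), a level of 45.5 CPM (35.5 to 57.3) at a median depth of 9014 UMIs, and 4 cells were at 5 or more per 10000. The 53 control cells left out held 0 Spp1 UMIs, which allows up to 12.2 CPM.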

How the results depend on the processing

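With 1 library per genotype no replicate could be left out, and no paired analysis was possible because each group has a single sample. Control eGFP cells held 0 Spp1 UMIs under the 6 alternatives tried. The KO level of 340.0 CPM became 596.8 CPM at a mitochondrial limit of 5% (648 cells), 326.5 CPM with no limit, 264.3 CPM as a mean over cells and, in an alternative chosen after seeing the data, 164 CPM without the 10 highest cells. The share with a UMI, 35.4%, was 39.7% at the 5% limit and 18.0% after thinning, and the share of high cells, 5.32%, was 7.87% at the 5% limit. Against 124 genes higher (Spp1 aside) and 215 lower, a minimum of 10 CPM gave 405 and 675, and a fold of 2 gave 38 and 69. Thinning gave 189 and 301, with the classes cut again from the thinned counts, 99 high cells against 1559 with none. The lowest contractile quartile, also added after seeing the data, gave 55 and 104. In that quartile 33 of the 124 and 40 of the 215 were still called, while 18 and 23 lay on the other side of 1. Of the called genes followed singly, Igfbp2 (0.344), Mmp2 (0.820), Lum (0.899) and Dcn (0.739) turned lower there. Igfbp2 had only 2.80 CPM in high cells and 8.13 CPM in cells with none there, and an interval of 0.0883 to 0.974. Prg4 (0.948, 0.727 to 1.23), Actg2 (1.47, 0.884 to 2.40) and Ldb3 (1.054, 0.538 to 1.96) also lay on the other side of 1. The intervals of these last 3 spanned 1, so their direction in that quartile is not settled. Fabp5 stood at 1.04 after thinning and Top2a at 0.472 at the 5% limit. Each had only 23 UMIs in the high cells of the main setting. No interval is given for these values, so their direction is not settled either. The causes were not tested. Of 1386 single-gene values under alternatives, 346 lay outside the counting interval of the main setting and 1031 within it. The other 9 were called genes on the other side of 1. The counting error of the alternatives themselves was not used for these counts. With genes short of the call included, 85 values lay on the other side of 1, of which 21 of 126 in the lowest contractile quartile. With a pseudocount of 1, 8 of the 10 genes most correlated over the authors' columns were the same. Depth limits genes of few UMIs, such as Runx2 and Il6.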
